A study of Mus musculus with 12 samples.

Results

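The cytosolic ribosomal proteins are the protein subunits of the ribosome that translates nuclear-encoded mRNAs outside the mitochondria. Members were taken by gene symbol. A probe set, the group of short oligonucleotides that reads 1 transcript on the array, was admitted when its only symbol began with Rpl or Rps followed by a digit or was Rplp0, Rplp1, Rplp2 or Rpsa. Ribosomal S6 kinases and pseudogene symbols were left out. This gave 50 genes of the 18193 measured, and each gene was represented by the brightest of its probe sets. Of the 50, 21 were proteins of the small subunit, 20 were core proteins of the large subunit, and 2, Rplp0 and Rplp2, belonged to the stalk of the large subunit. Another 5 were paralogs (Rpl3l, Rpl22l1, Rpl39l, Rps27l and Rps4l). The last 2, Rpl7l1 and Rps19bp1, are nucleolar proteins whose symbols satisfied the rule although they are no ribosomal subunits. The list was not complete, since 31 ribosomal protein symbols stood only on probe sets that carried several symbols.

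The arrays, 12 in all and made by Affymetrix, were hybridised with biotin-labelled cRNA from skeletal muscle of an inbred mouse strain, C57Bl/6. For 4 arrays the mice had been switched at 6 weeks of age to a high-fat diet, with 46% of calories from fat, for 42 days. For another 4 the same diet had been given for 5 days, and 4 came from mice that stayed on standard chow, with 13% of calories from fat. No genetic change was labelled, and the mice of all groups were group housed and ate standard chow up to 6 weeks of age. Sex, the muscle taken and the age at which chow mice were sampled are not in the labels. Nor do they state that each replicate is an animal of its own: the p-values below therefore reflect spread among arrays that may be technical. The question behind the comparisons was whether these transcripts differed in muscle after a short and a longer period of fat feeding.

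The cytosolic ribosome has a small subunit, which decodes the mRNA, and a large subunit, which joins the amino acids. Most ribosomal proteins are needed in equal numbers, and their mRNAs share a start rich in pyrimidines, the terminal oligopyrimidine (TOP) motif, through which the kinase complex mTORC1 controls their translation as a group. In skeletal muscle ribosome number is known as a determinant of the capacity for protein synthesis, and striated muscle expresses its own variant of 1 large-subunit protein, Rpl3l.

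The promoters of the members described most closely below are shown to let a reader see the DNA around their starts. They come from RefSeq on the mouse build GRCm38.p6, and 44 of the 50 genes matched an entry, with 52 promoters. Each line holds 100 bases before the transcript start and the first 15 bases of the transcript, 5′ to 3′ on the gene's strand, and capitals mark CGGAAG or its reverse complement CTTCCG, the core letters bound by ETS-family factors. Rpsa, Rps6, Rpl37, Rps25 and Rps9 fell at 42 days, Rpl12 fell at 5 days, and Rplp0 and Rpl3l had the highest changes at 42 days. The Rps9 start is not the outermost start of its gene.
Rpsa, chr9:120127666-120127780, plus strand: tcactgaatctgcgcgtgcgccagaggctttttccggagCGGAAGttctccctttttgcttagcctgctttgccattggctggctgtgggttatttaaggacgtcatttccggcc
Rps9, chr7:3703941-3704055, plus strand: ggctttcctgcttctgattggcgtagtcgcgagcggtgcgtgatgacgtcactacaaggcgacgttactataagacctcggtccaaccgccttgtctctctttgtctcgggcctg
Rps6, chr4:86857353-86857467, minus strand: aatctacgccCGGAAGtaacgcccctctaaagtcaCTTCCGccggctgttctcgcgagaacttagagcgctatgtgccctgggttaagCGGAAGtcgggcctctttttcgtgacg
Rpl37, chr15:5116513-5116627, plus strand: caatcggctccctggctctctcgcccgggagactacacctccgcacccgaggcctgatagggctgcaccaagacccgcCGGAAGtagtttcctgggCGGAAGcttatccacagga
Rps25, chr9:44407614-44407728, plus strand: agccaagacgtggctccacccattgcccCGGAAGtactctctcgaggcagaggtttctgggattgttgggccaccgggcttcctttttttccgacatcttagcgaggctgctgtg
Rpl12, chr2:32961612-32961726, plus strand: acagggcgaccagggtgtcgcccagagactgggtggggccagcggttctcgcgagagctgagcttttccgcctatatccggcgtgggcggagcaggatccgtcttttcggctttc
Rplp0, chr5:115559367-115559481, plus strand: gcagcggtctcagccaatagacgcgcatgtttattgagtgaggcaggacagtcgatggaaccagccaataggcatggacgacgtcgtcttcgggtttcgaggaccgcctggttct
Rpl3l, chr17:24727726-24727840, plus strand: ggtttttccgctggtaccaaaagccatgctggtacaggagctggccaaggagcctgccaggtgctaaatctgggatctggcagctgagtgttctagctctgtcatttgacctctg

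CGGAAG on either strand occurred in 32 of the 52 promoters of ribosomal protein genes, or 61.5%, when the whole 300 bases from 250 before to 50 after the start were searched. Among all 32851 promoters of that length the share was 16.9%. Rpsa and Rps6 each held 3 matches and so did Rpl37, Rps25 and Rpl12 held 1 each, and the windows searched for the Rps9 start shown, for Rplp0 and for Rpl3l held 0. The letters CTTT on the gene's strand, a pyrimidine stretch, lay within 15 bases of the start in 26.9% of the promoters of ribosomal protein genes and in 12% of all promoters. A match describes the letters in the window and is no measured binding site.

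Most members were among the brightest genes on the arrays. Their mean log2 signal over the 12 arrays had a median of 13.32 and ran from 5.45 for Rps16 to 14.64 for Rps29, on arrays whose values ended at 15.46. All genes were divided by mean signal into deciles, of which the brightest began at 11.20, and 38 members lay above that edge and 12 below. These levels are those of the chosen probe sets with 1 symbol and not of the genes as such. Among the 12, Rps16, Rps6, Rps25, Rpl12, Rpl39, Rps27, Rpl27a and Rpl14 were also read by far brighter probe sets with several symbols. The skeletal muscle markers averaged 14.95 ± 0.01 at 42 days, 14.94 ± 0.02 at 5 days and 14.94 ± 0.03 on chow (SD, n = 4). Between arrays of the same group the members varied little, with a median residual SD of 0.0597 against 0.0957 for all genes and 0.0717 for genes of the brightest decile. The 38 bright members had a median residual SD of 0.0511 and the 12 dimmer ones 0.0999.

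After 42 days on the high-fat diet 44 of the 50 ribosomal protein genes lay below chow and 6 above, by small amounts. Of all genes 54.9% lay below chow, and of genes of the brightest decile 62.6%. The median log2 fold change of the members was -0.06, against -0.01 over all genes and -0.04 over genes of the brightest decile. By limma 5 members passed an adjusted p of 0.05, all lower: Rpsa, Rps9, Rps6 and Rps25 of the small subunit and Rpl37 of the large subunit. None rose, and at an unadjusted p under 0.05 there were 14 lower and 1 higher, beside 13.4% and 8.43% of all genes. These 5 of 50 stand beside 5.56% of all genes past the same test in either direction (3.44% lower and 2.12% higher). When 1 array was left out in turn, 1 to 5 members passed, beside 1.25% to 5.93% of all genes. Rpsa passed in all 12 such fits, while Rpl37, Rps25, Rps6 and Rps9 lost their calls in 6, 8, 6 and 8 of them. Rps6, Rps25 and Rpl37 were also read by brighter probe sets that carry several symbols, and none of these passed the test. In 15 members all 4 arrays at 42 days lay below all 4 chow arrays, and in Rplp0 all 4 lay above, 16 of 50 in all, while 13.9% of all genes had ranges that did not overlap (8.66% below and 5.19% above). The changes were narrow in size: for 35 members (70.0%) the 95% interval of the log2 fold change lay within 0.25 on either side of 0. The share was 61.3% over all genes and 65.5% over genes of the brightest decile. By more than 0.25 moved 3 members, beside 6.6% of all genes.

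**Figure D1:**
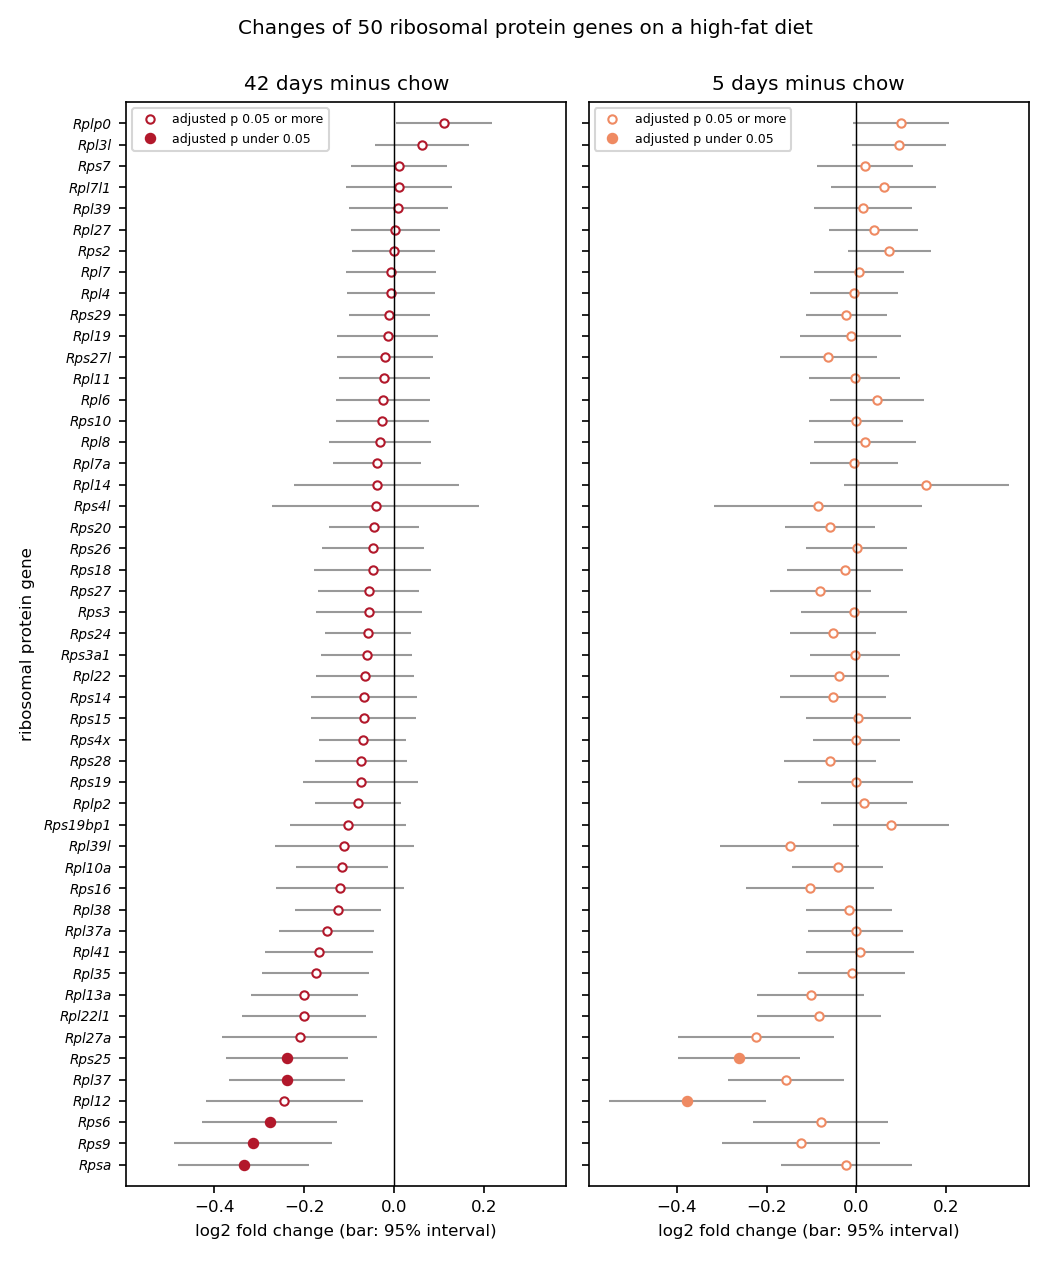
Log2 fold change of each of the 50 ribosomal protein genes (points) with its 95% interval (bars), at 42 days minus chow on the left and at 5 days minus chow on the right, sorted by the 42-day change; filled points passed an adjusted p of 0.05 over all 18193 genes. At 42 days 44 points lie left of 0 and the 5 filled ones lie at or below -0.24; at 5 days the filled points are Rpl12 and Rps25. Both panels use the same 4 chow arrays.

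The small subunit held 4 of the 5 genes that fell. Of its 21 members 20 lay below chow at 42 days, with a median log2 fold change of -0.06 against -0.05 for the large subunit. Among all genes 54.9% lay below chow, and among genes of the brightest decile 62.6%. At an unadjusted p under 0.05 by limma, 4 small-subunit members were lower and 0 higher. The 22 large-subunit members, stalk included, had 9 lower and 1 higher, so the calls do not set the small subunit apart. Rpsa, a small-subunit protein also known as the laminin receptor, read 12.67, 12.84, 12.64 and 12.72 at 42 days, 12.97, 12.99, 13.11 and 13.05 at 5 days, and 12.98, 13.04, 13.24 and 12.95 on chow (log2 signal of each array). The 4 arrays at 42 days lay below the other 8, while the 5-day and chow arrays overlapped. Its log2 fold change at 42 days was -0.33 ± 0.068 (± SE), or 1.26-fold lower, with adjusted p = 0.0162 by limma. A second probe set of Rpsa, dim at a mean of 5.48, had a change of 0.002.

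Rps9, a small-subunit protein that binds the 18S rRNA early in assembly, read 12.39, 12.25, 12.34 and 12.25 at 42 days, 12.49, 12.41, 12.75 and 12.34 at 5 days, and 12.47, 12.71, 12.72 and 12.59 on chow. The 42-day arrays lay below every chow array, and the 5-day arrays overlapped both. It fell 1.24-fold (log2 fold change -0.31 ± 0.082, adjusted p = 0.0395 by limma). Its probe set carries the suffix _x_at, which marks possible cross-hybridisation, and its other probe sets changed by -0.12 and 0.003, neither past the test.

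Rps6, the substrate of the S6 kinases downstream of mTORC1, read 8.53, 8.45, 8.49 and 8.54 at 42 days, 8.60, 8.74, 8.84 and 8.62 at 5 days, and 8.66, 8.73, 8.98 and 8.76 on chow. At 42 days all 4 arrays lay below the other 8, and 1 chow array, replicate 3, stood above the rest. Rps6 fell 1.21-fold at 42 days (log2 fold change -0.28 ± 0.071, adjusted p = 0.0352 by limma), and its dimmer second probe set changed by -0.03. Of 9 further Rps6 probe sets, which carry several symbols, 8 were brighter than the chosen one at a mean of 8.66, and these had -0.19 to -0.05 at 42 days with 0 past the test; the brightest, at 13.96, had -0.07. Rps25, a small-subunit protein used in initiation at internal ribosome entry sites, read 8.76, 8.73, 8.86 and 8.77 at 42 days, 8.76, 8.58, 8.84 and 8.85 at 5 days, and 9.10, 8.95, 9.02 and 9.0 on chow. Both high-fat groups lay wholly below chow and overlapped each other. Its log2 fold change was -0.24 ± 0.064 at 42 days (1.18-fold lower, adjusted p = 0.0432 by limma) and -0.26 ± 0.064 at 5 days (1.20-fold lower, adjusted p = 0.0416), comparisons that share the chow arrays. The chosen Rps25 probe set averaged 8.85, and a far brighter one with several symbols, at 13.58, had -0.03 at 42 days and 0.009 at 5 days, neither past the test.

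Other proteins of the small subunit had smaller differences. Rps19, whose human counterpart is mutated in Diamond-Blackfan anaemia, had log2 fold changes of -0.07 at 42 days and -0.002 at 5 days, and Rps4x had -0.07 and 0.00. Rps27, a zinc-finger protein, had -0.06 and -0.08 on a probe set at 7.90. A far brighter one with several symbols, at 13.72, had -0.12 and -0.03. Rps7 had 0.01 at 42 days (95% interval -0.10 to 0.12) and 0.02 at 5 days. Rps2 changed by -0.0007 at 42 days and by 0.07 at 5 days (adjusted p = 0.301), with 14.25, 14.33, 14.30 and 14.29 at 5 days, all just above the chow range of 14.20 to 14.23. Rps16 was read by a probe set at a mean of 5.45, near the low end of the arrays. Far brighter Rps16 probe sets with several symbols, at 14.26 and 13.30, had -0.06 and -0.08 at 42 days and 0.01 and -0.03 at 5 days. None of these passed the test.

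**Figure D2:**
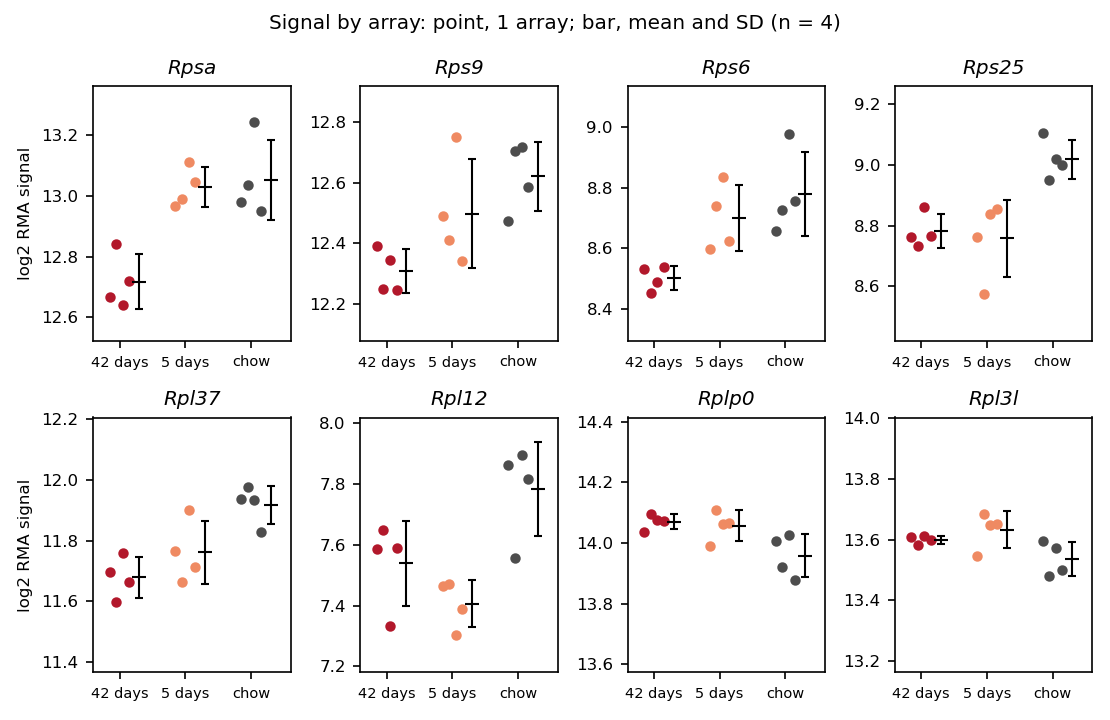
Log2 RMA signal of 8 ribosomal protein genes, by group (42 days, 5 days, chow) on the horizontal axis; each point is an array and the bars give the mean and SD of 4 arrays, with an axis of equal length but different origin in each panel. Rpsa, Rps9, Rps6, Rps25 and Rpl37 lie below chow at 42 days, Rpl12 and Rps25 do so at 5 days, and Rplp0 lies above chow at 42 days by 0.11 without passing the test.

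Of the 22 large-subunit members, stalk included, 19 lay below chow at 42 days and 3 above, with a median log2 fold change of -0.05. The share below chow was 54.9% over all genes and 62.6% over genes of the brightest decile. Only Rpl37 passed the test, while 9 were lower and 1 higher at an unadjusted p under 0.05. Rpl37, a zinc-finger protein of the large subunit, read 11.70, 11.60, 11.76 and 11.66 at 42 days, 11.77, 11.66, 11.90 and 11.71 at 5 days, and 11.94, 11.97, 11.93 and 11.83 on chow. The 42-day arrays lay below every chow array and overlapped those at 5 days. Rpl37 fell 1.18-fold at 42 days (-0.24 ± 0.060, adjusted p = 0.0341 by limma) and had -0.16 ± 0.060 at 5 days (adjusted p = 0.128). The call rests on 1 probe set of the _x_at kind, at a mean of 11.79. Of 3 probe sets that Rpl37 shares with Rpl37rt, the brighter pair, at 13.62 and 13.41, had 0.06 and -0.06 at 42 days and the dimmer one had -0.01, with 0 past the test.

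Rpl13a, known for a role in silencing translation during interferon responses, read 13.50, 13.52, 13.45 and 13.50 at 42 days, 13.57, 13.64, 13.62 and 13.54 at 5 days, and 13.65, 13.67, 13.85 and 13.61 on chow. The 42-day arrays lay below all others, and its log2 fold change of -0.20 ± 0.056 missed the threshold (adjusted p = 0.0509 by limma). Its other 3 probe sets had -0.09, -0.20 and -0.25. When every probe set was tested, the last of these and the chosen one passed (adjusted p = 0.039 each by limma). Of the Rpl13a probe sets with several symbols, a bright one at 13.54 had -0.25 (adjusted p = 0.00587 by limma). A dim one at 5.88 had 0.04. Rpl35, Rpl41, Rpl37a, Rpl38 and Rpl10a, named here after their values were seen, also had all 42-day arrays below all chow arrays, with log2 fold changes of -0.17, -0.17, -0.15, -0.13 and -0.12 and adjusted p-values of 0.083, 0.0956, 0.0936, 0.116 and 0.173. Rps24 and Rps28 of the small subunit, named on the same basis, did so too, with -0.06 and -0.07. Rpl27a had -0.21 at 42 days (adjusted p = 0.145) and -0.22 at 5 days (adjusted p = 0.112). Its chow arrays read 9.09, 9.02, 9.41 and 9.05, with replicate 3 apart. A far brighter Rpl27a probe set with several symbols, at 13.32, had -0.12 at 42 days and -0.02 at 5 days. Neither change passed the test. The other Rpl27a probe set with 1 symbol, dim at 5.99, had 0.16 at 42 days and -0.02 at 5 days.

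Rpl12, a protein at the base of the stalk where translation factors bind, had its lowest values at 5 days. It read 7.58, 7.65, 7.33 and 7.59 at 42 days, 7.46, 7.47, 7.30 and 7.39 at 5 days, and 7.86, 7.56, 7.90 and 7.82 on chow. The 5-day arrays lay below all chow arrays, whereas the 42-day arrays overlapped with chow replicate 2. Rpl12 fell 1.30-fold at 5 days (log2 fold change -0.38 ± 0.082, adjusted p = 0.0344 by limma) and had -0.24 ± 0.082 at 42 days (adjusted p = 0.0957). The difference between the diet times, 0.13 ± 0.082, did not pass (adjusted p = 0.279). Its probe set averaged 7.58, and a pair of far brighter Rpl12 probe sets with several symbols, at 13.01 and 12.98, had 0.02 and -0.01 at 5 days and -0.04 and -0.13 at 42 days, none past the test.

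The stalk proteins did not share a direction at 42 days. Rplp0, the scaffold that anchors the stalk and a common reference gene in PCR assays, read 14.04, 14.10, 14.08 and 14.07 at 42 days, 13.99, 14.11, 14.06 and 14.07 at 5 days, and 14.01, 13.92, 14.03 and 13.88 on chow. The 42-day arrays lay above all chow arrays by a small margin, and the 5-day arrays overlapped both. Its log2 fold changes were 0.11 ± 0.050 at 42 days (95% interval 0.0045 to 0.2185, adjusted p = 0.209 by limma) and 0.10 ± 0.050 at 5 days (adjusted p = 0.237). Rplp2, which binds Rplp0 as a dimer, lay below chow on all 4 arrays at 42 days, with -0.08 (adjusted p = 0.33), and had 0.02 at 5 days. Rpl11, which with Rpl5 and the 5S rRNA can bind the p53 regulator Mdm2, had -0.02 and -0.004, and Rpl7 had -0.01 in the 42-day and 0.01 in the 5-day comparison. Rpl14, on a dim probe set, had -0.04 at 42 days and 0.16 at 5 days, and Rpl39, a small protein of the exit tunnel, had 0.01 at both times. The chosen Rpl39 probe set averaged 8.80, and a far brighter one with several symbols, at 14.24, had -0.04 and -0.06.

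Among the paralogs, Rpl3l, the striated-muscle variant of Rpl3, read 13.61, 13.58, 13.61 and 13.60 at 42 days, 13.54, 13.69, 13.65 and 13.65 at 5 days, and 13.60, 13.48, 13.57 and 13.50 on chow. The 3 groups overlapped. Its log2 fold changes were 0.06 ± 0.049 at 42 days (95% interval -0.04 to 0.17) and 0.10 ± 0.049 at 5 days, with adjusted p-values of 0.505 and 0.244 by limma. Rpl3 itself was read only by probe sets of several symbols, with -0.004 on the bright one and -0.22 on the dim one at 42 days. Rpl22l1, the paralog of Rpl22, read 13.16, 13.05, 13.14 and 13.17 at 42 days, 13.06, 13.26, 13.41 and 13.25 at 5 days, and 13.36, 13.32, 13.34 and 13.29 on chow. The 42-day arrays lay below chow without overlap, and its -0.20 ± 0.065 did not pass (adjusted p = 0.0854), beside -0.06 for Rpl22. Other Rpl22 probe sets, at means of 12.23 and 10.63, had 0.002 and -0.21. The dimmer one passed when every probe set was tested (adjusted p = 0.0259 by limma). Rps27l, a p53-inducible paralog of Rps27, had -0.02 at 42 days and -0.06 at 5 days. Rpl39l, known from testis, had -0.11 and -0.15, and Rps4l had -0.04 and -0.09, both on dim probe sets. The nucleolar proteins Rpl7l1 and Rps19bp1, the second a regulator of the deacetylase Sirt1, had 0.01 and -0.10 at 42 days and 0.06 and 0.08 at 5 days.

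**Figure D3:**
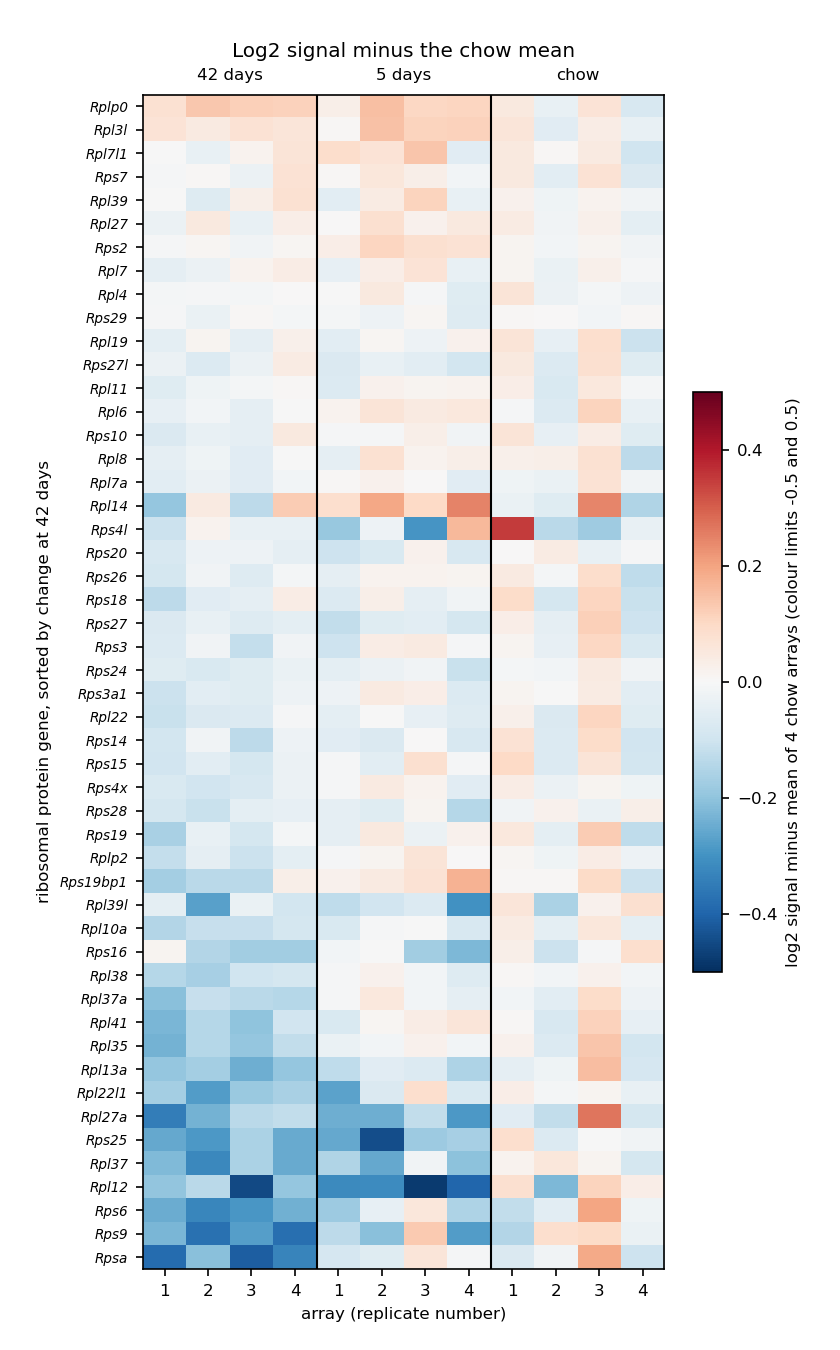
Log2 signal of each ribosomal protein gene on each array minus the mean of the 4 chow arrays, with genes down the page sorted by their change at 42 days and arrays across (42 days, 5 days, chow); blue is lower and red is higher than the chow mean, and colours end at -0.5 and 0.5. The 42-day columns are mostly pale blue, and among the chow columns replicates 1 and 3 are mostly red and replicates 2 and 4 mostly pale blue.

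Summed over the list, the shift at 42 days was of the same order as the spread of the chow arrays. The mean log2 signal of the 50 members was 12.11, 12.13, 12.12 and 12.16 at 42 days, 12.15, 12.20, 12.21 and 12.16 at 5 days, and 12.24, 12.17, 12.28 and 12.16 on chow. The highest 42-day array, at 12.1619, lay just below the lowest chow array, at 12.1629, so these ranges did not overlap but nearly touched. Group means were 12.128 ± 0.024 at 42 days, 12.181 ± 0.028 at 5 days and 12.213 ± 0.056 on chow (SD, n = 4). The number of members below their own chow mean was 47, 42, 44 and 34 on the 42-day arrays, 40, 24, 19 and 35 on the 5-day arrays, and 11, 42, 7 and 45 on the chow arrays. Chow replicates 1 and 3 thus had high and replicates 2 and 4 low values for most of the list.

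**Figure D4:**
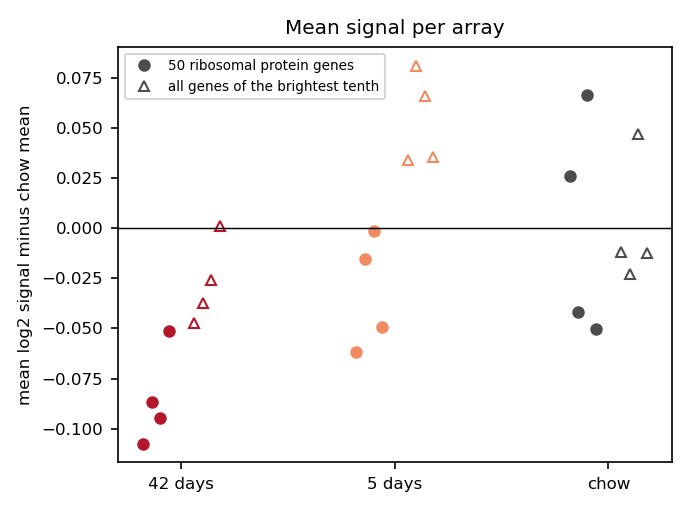
Mean log2 signal of the 50 ribosomal protein genes (filled circles) and of all genes of the brightest decile (open triangles) on each array, minus the mean of the 4 chow arrays; arrays are grouped as 42 days, 5 days and chow. The ribosomal protein means of the 42-day arrays lie below the chow mean of 0, those of the 5-day arrays lie at or below it while the bright genes lie above it, and the chow arrays spread to both sides.

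At 5 days 34 members (68%) lay below chow and 16 above. Of all genes 53% lay below chow, and of genes of the brightest decile 26.6%. The median log2 fold change of the members was -0.01, equal to the -0.01 of all genes at this precision. Rpl12 and Rps25 fell and none rose, 2 of 50 beside 3.8% of all genes in either direction (2.2% lower and 1.6% higher), and at an unadjusted p under 0.05 there were 4 lower and 0 higher, beside 14.1% and 10.6% of all genes. With 1 array left out 0 to 2 members passed, beside 0.033% to 4.34% of all genes. Rpl12 and Rps25 lost their calls in 6 and 10 of 12 such fits. Ranges did not overlap with chow in 3 members (Rpl12 and Rps25 below, Rps2 above), against 11.8% of all genes (6.47% below and 5.29% above). For 42 members (84.0%) the 95% interval lay within 0.25 on either side of 0, against 56.2% of all genes and 73.7% of genes of the brightest decile. The direction of the median at 5 days depended on the scaling: it was 0.05 after each array was centred on its median and -0.05 after cyclic loess. Over all genes the median was 0.0489 and -0.0053 under the same scalings. Genes of the brightest decile as a whole had a median of 0.05 at 5 days, and the 38 members in that decile had -0.01.

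**Figure D5:**
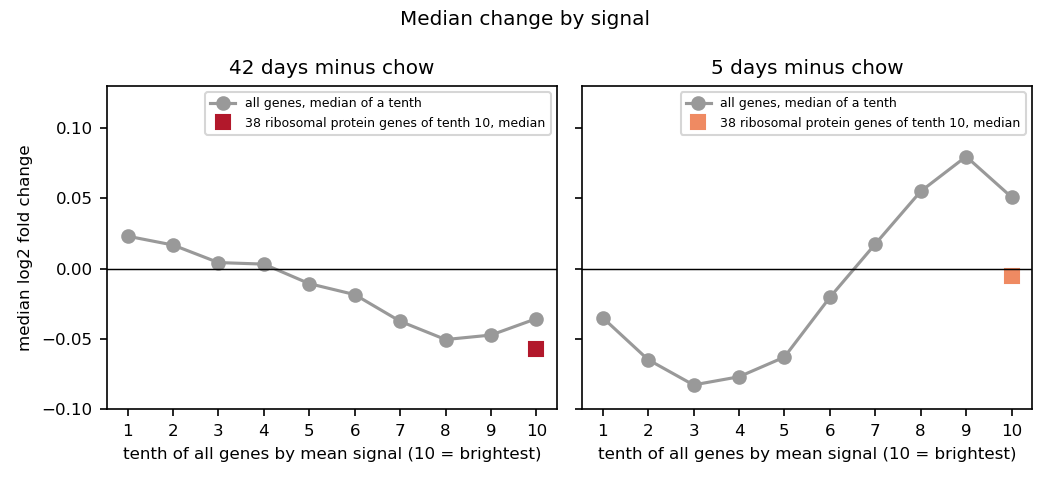
Median log2 fold change of all genes in each decile of mean signal (grey line; 10 is the brightest) and of the 38 ribosomal protein genes in the brightest decile (square), at 42 days minus chow on the left and at 5 days minus chow on the right. At 42 days the members' median is -0.06 and that of the decile -0.04; at 5 days the values are -0.01 and 0.05.

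Between the high-fat groups, 40 members (80%) were lower at 42 than at 5 days and 10 were higher. Of all genes 48% were lower, and of genes of the brightest decile 80.1%, a share close to that of the members. The median log2 fold change of the members was -0.03, against 0.01 over all genes and -0.08 over genes of the brightest decile. Rpsa fell (-0.31 ± 0.068, adjusted p = 0.0225 by limma) and no other member passed, 1 of 50 beside 8.52% of all genes (5.77% lower and 2.75% higher). The Rpsa call was lost in 3 of 12 fits without 1 array. At an unadjusted p under 0.05 there were 10 lower and 0 higher, beside 17.2% and 13.7% of all genes. In 11 members the 42-day arrays lay wholly below the 5-day arrays and in 0 wholly above, 22% against the 20.4% of all genes whose ranges did not overlap (13.3% below and 7.17% above). The lowest changes after Rpsa were -0.20 for Rps6 (adjusted p = 0.0823), -0.19 for Rpl14, -0.19 for Rps9 and -0.18 for Rps19bp1. The highest were 0.13 for Rpl12, 0.05 for Rps4l, 0.04 for Rps27l, 0.04 for Rpl39l and 0.02 for Rps27. A moderated F-test for any difference among the 3 groups called Rpsa, Rps9, Rps6, Rps25, Rpl37 and Rpl12, 6 of 50, beside 12.5% of all genes.

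The other probe sets gave a check on the choice of 1 probe set a gene. The 50 genes had 106 probe sets, and 26 genes had 1 and 24 had more. At 42 days 87 of the 106 lay below chow, with a median log2 fold change of -0.07, and 11 fell and 0 rose when every probe set was tested, beside 10.6% of all probe sets with 1 symbol. Of the 56 probe sets not chosen, 43 were lower and 13 higher and 5 fell. At 5 days 70 of the 106 were lower and 35 higher, and 2 fell beside 3.59%; between the high-fat groups 80 were lower, and 2 fell and 1 rose beside 7.8%. At 42 days against chow the counts by kind of probe set were these: 38 of 40 with the suffix _x_at lay below chow, with a median of -0.09, 26 of 28 with _a_at, which marks transcripts of the same gene, with a median of -0.06, all 3 with _s_at, with a median of -0.12, and 20 of 35 with the plain suffix _at, with a median of -0.03. Of the 24 genes with several probe sets, 8 had all of them in 1 direction at 42 days. Rps18 and Rps20, named here after their values were seen, had changes between -0.25 and 0.06 and between -0.45 and 0.09 on their probe sets. For Rps18 the -0.25 came from an _x_at probe set at a mean of 13.06 and the 0.06 from one at 5.15. For Rps20 the -0.45 came from a probe set at 5.46, near the low end of the arrays, and the 0.09 from one at 6.98. The bright Rps20 probe sets, at 13.92 and 13.85, had -0.04 and -0.12.

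Ribosomal proteins that shared a probe set with other symbols were read by 110 further probe sets, examined after the data were seen. At 42 days 90 of them lay below chow and 20 above, with a median log2 fold change of -0.07, and 12 fell and 0 rose beside 8.78% of all non-control probe sets. At 5 days 1 of the 110 fell, beside 3.21%, and between the high-fat groups 2 fell, beside 5.98%. Rplp1, the third stalk protein, had -0.06, and the main probe set of Rpl5 had 0.003 beside -0.20 and -0.21 on dimmer ones. Rpl10, the protein that completes the large subunit, had 0.12 and -0.02, and the probe sets of Rpl36a and Rpl36al, which carry both symbols, had -0.10 and -0.11. Rpl14 was read there by 4 _x_at probe sets that fell by 0.18 to 0.26 and by another with 0.06, in contrast to the -0.04 of its dim probe set with 1 symbol.

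Related genes of translation were taken as lists, most of whose genes were bright. In the 3 brightest deciles lay 8 of the 9 measured elongation factors, all 29 initiation factors, all 15 other TOP mRNAs, 24 of 34 biogenesis genes and 13 of 19 mTORC1 genes. Of all 5458 genes of these deciles 64.5% were lower at 42 days than on chow (median -0.04), 74.2% were higher at 5 days than on chow (median 0.06) and 82.1% were lower at 42 than at 5 days (median -0.10). Of them 6.3% fell and 3.32% rose at 42 days, 0.605% fell and 3.54% rose at 5 days, and 13.8% fell and 0.77% rose between the high-fat groups. Of the ribosomal proteins outside the symbol rule only Fau was measured, with -0.15 at 42 days (adjusted p = 0.147) and -0.04 at 5 days. Of 9 measured elongation factors 7 lay below chow at 42 days (median -0.05) and 5 lay above at 5 days (median 0.03), with 0 past the test in either comparison. Between the high-fat groups Eef2k, the kinase that inhibits elongation factor 2, fell (-0.23 ± 0.064, adjusted p = 0.0434). This call was lost in 8 of 12 fits without 1 array and in 7 of 14 other alternatives, among them the replicate block, and was -0.04 on its brightest probe set without a suffix. Of 15 other TOP mRNAs 10 were lower at 42 days (median -0.03) and 5 at 5 days (median 0.02), and none passed in any comparison. The TOP list shares genes with the elongation, initiation and biogenesis lists and includes Fau, so the counts of these lists overlap. At an unadjusted p under 0.05 these TOP mRNAs numbered 3 lower and 1 higher at 42 days, 0 in either direction at 5 days, and 3 lower and 1 higher between the high-fat groups.

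Of 29 measured initiation factors 17 were lower and 12 higher at 42 days (median -0.03), and 2 rose. Eif3m, a subunit of initiation factor 3, averaged 11.37 ± 0.044 at 42 days, 11.33 ± 0.078 at 5 days and 11.13 ± 0.052 on chow (SD, n = 4). It rose at 42 days (0.24 ± 0.053, adjusted p = 0.0203 by limma) and at 5 days (0.20 ± 0.053, adjusted p = 0.049), and both high-fat groups lay wholly above chow. The 5-day call was lost in 11 of 12 fits without 1 array and in 9 of 14 other alternatives, the replicate block included. The 42-day call was lost in 3 of 12 and 4 of 14, with 0.13 over the mean of probe sets and 0.02 on the most variable one. Eif4e, the cap-binding protein, rose at 42 days (0.21 ± 0.054, adjusted p = 0.0344) and had 0.20 at 5 days (adjusted p = 0.0507), though its most variable probe set had -0.0052 at 42 days. Its 42-day call was lost in 7 of 12 fits without 1 array, with the replicate block and in the 8 arrays compared. At 5 days 25 of the 29 were higher (median 0.04), and between the high-fat groups 25 were lower (median -0.07). There Eif5b (-0.26) and Eif2b4 (-0.24), both of the initiation machinery, fell with adjusted p-values of 0.0252 and 0.0257. These calls were lost in 4 and 5 of 12 fits without 1 array.

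Of 34 measured ribosome biogenesis genes, 29 were below chow and 5 above at 42 days, with a median log2 fold change of -0.12, and 4 fell. Tsr1, a maturation factor of the small subunit, averaged 9.90 ± 0.14 at 42 days, 10.32 ± 0.091 at 5 days and 10.33 ± 0.15 on chow, and fell 1.35-fold against chow (-0.43 ± 0.082, adjusted p = 0.0123 by limma). Rrs1, which brings the 5S rRNA particle into the large subunit, fell by 0.31 (adjusted p = 0.0493), and Rrn3, an initiation factor of RNA polymerase I, fell by 0.23 (adjusted p = 0.0214). Nolc1, a nucleolar chaperone, fell by 0.24 (adjusted p = 0.0346) on its brightest probe set and had 0.30 on its most variable one (adjusted p = 0.0307), so its direction depended on the probe set. At 5 days 24 of the 34 were above chow (median 0.04), and Fbl, the methyltransferase fibrillarin, and Ltv1, a small-subunit assembly factor, rose by 0.21 (adjusted p = 0.0419) and 0.23 (adjusted p = 0.0415). Each lost its call in 8 of 12 fits without 1 array, and Fbl in 7 and Ltv1 in 6 of 14 other alternatives. Between the high-fat groups 33 of 34 were lower at 42 days (median -0.15) and 6 fell: Tsr1 (-0.42), Nolc1 (-0.28), Polr1a (-0.27), Nop14 (-0.24), Rrn3 (-0.18) and Nop2 (-0.17). Without 42-day replicate 1 this comparison called 0 of all genes.

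Of 19 measured genes that carry mTORC1 signals to the ribosome, 10 were lower and 9 higher at 42 days (median -0.03), and 4 fell. Larp1, the protein that binds TOP mRNAs, averaged 11.71 ± 0.046 at 42 days, 11.98 ± 0.016 at 5 days and 11.96 ± 0.043 on chow, and fell by 0.25 at 42 days (adjusted p = 0.011 by limma). Eif4ebp1 and Eif4ebp2, which hold the cap-binding protein inactive, fell by 0.35 (adjusted p = 0.0167) and 0.29 (adjusted p = 0.0381), and Deptor, an inhibitor of mTOR, fell by 0.36 (adjusted p = 0.0298). Other choices of probe set ended these calls: Eif4ebp1 had -0.13 on its brightest probe set without a suffix, Eif4ebp2 had -0.008 over the mean of its probe sets, and Deptor had -0.21 over the mean and -0.40 on its most variable one. At 5 days 14 of the 19 were higher (median 0.05) and 0 passed, with 3 higher and 0 lower at an unadjusted p under 0.05. Between the high-fat groups 15 were lower at 42 days (median -0.08) and 5 fell: Eif4ebp1 (-0.33), Sesn3 (-0.31), Eif4ebp2 (-0.27), Larp1 (-0.27) and Tsc1 (-0.20). None of these calls held without 42-day replicate 1, where 0 of all genes passed. Sesn3 encodes a sestrin and Tsc1 hamartin, both known to restrain mTORC1.

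Several measures of the samples moved with the groups, and in bulk tissue fewer cells of a type and less RNA per cell cannot be told apart. The mean 3′ minus 5′ difference of the control transcripts, a sign of RNA integrity and labelling, was 0.892 ± 0.078 at 42 days, 1.019 ± 0.075 at 5 days and 1.069 ± 0.063 on chow (SD, n = 4). White adipocyte markers (5 of 7 measured) averaged 9.75 to 10.65 at 42 days, 9.79 to 10.32 at 5 days and 10.44 to 11.42 on chow. With either measure as a covariate 0 members passed at 42 days, in fits that called 10 and 116 of all genes. The fitted changes of the 5 members that had fallen were then -0.25 to -0.21 with the 3′ to 5′ difference and -0.31 to -0.25 with the adipocyte mean, against -0.33 to -0.24 without. The 42-day calls of all 10 named pathway genes were lost with each covariate as well. Liver markers (4 of 4) averaged 9.71 to 11.16 at 42 days, 8.15 to 10.03 at 5 days and 8.49 to 9.09 on chow, and all 4 rose at 42 days. Fibroblast and tendon markers (5 of 5) averaged 11.33 to 11.58, 10.71 to 11.52 and 10.62 to 11.02 in the same order of groups, and 2 of them rose at 42 days. Brown adipocyte markers (3 of 3) averaged 6.86 to 8.01 at 42 days, 6.84 to 7.06 at 5 days and 7.04 to 8.94 on chow. The group means of the macrophage (6 of 6 measured), lymphocyte (7 of 8), neutrophil (2 of 3), endothelial (6 of 6) and erythroid (3 of 5) lists were 8.98, 7.81, 6.94, 9.18 and 6.94 at 42 days, 8.93, 7.67, 7.26, 9.30 and 6.83 at 5 days, and 8.88, 7.85, 6.98, 9.09 and 6.96 on chow. The part of these cell types other than adipocytes in the ribosomal protein results was not tested.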

How the data were processed

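Labelled cRNA from skeletal muscle was hybridised to 12 arrays, 4 a group. The authors deposited log2 values made with RMA, 1 for every probe set and array, per the submitters' processing notes; the software version is not given in the sources used here. The values ran from 3.67 to 15.46, from which the log2 scale was inferred. Of 45098 probe sets 61 were controls, 34945 had 1 gene symbol, 932 several and 9160 none. Each of 18193 genes was represented by its brightest probe set with 1 symbol, without a filter on dim signals. Symbols of all 50 members matched the RefSeq table (GRCm38.p6) by Entrez identifier. Precision is limited by the number of arrays.

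A limma 3.58.1 model (R 4.3.3) covered the 12 arrays and all genes, with 9 residual degrees of freedom and 5.88 from the prior. The 3 contrasts were two-sided, Benjamini-Hochberg adjustment ran over the 18193 genes of each, and the threshold was an adjusted p of 0.05. Differences are given ± SE and group levels ± SD. The procedure was tested on simulated data.

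The members and lists were chosen with earlier results of these data known. Named members were those past a test, the 5 highest and 5 lowest of each contrast, and a panel of 27 genes, of which 19 were members; from the pathway lists (ribosomal proteins outside the symbol rule, elongation, initiation, other TOP mRNAs, biogenesis and mTORC1 signalling) up to 4 genes past the test per contrast were named, and further names were chosen after their values were seen, Fau, Rrn3 and Nop2 between the high-fat groups and Tsc1 among them. Rps27a and Rpl10l of the panel are not analysed here. Marker lists covered skeletal muscle, white and brown adipocytes, macrophages, lymphocytes, neutrophils, endothelium, fibroblasts and tendon, erythroid cells and liver.

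Alternatives were quantile normalization, median centring, cyclic loess, leaving out the 40% dimmest genes, other choices of probe set, a trended and robust prior, weights for arrays, a block for replicate number, a fit to just the 8 arrays of a comparison, an adjusted p under 0.1, the 3′ to 5′ difference or the adipocyte mean as a covariate, and leaving out each array. The fit with probe sets of several symbols and the alternatives for pathway genes were added after the data were seen. Replicate numbers did not generally pair the arrays: for 4 of 12 arrays the closest array had the same number. Among 12 pairs sharing a number, 3 had a correlation above 0.1. These 3 were the pairs of replicate 1 (0.21, 0.21 and 0.22), and whether its arrays shared a batch was not tested.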

Additional observations from a re-analysis of the deposited data

Results flagged for a closer look

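In 81 groups of 4 arrays (27 named members in 3 groups) 3 arrays stood apart from the others of their group by a gap that chance gives in about 1 in 20 groups. Rpl11 read 12.75 on replicate 1 at 5 days, while the other 3 arrays lay at 12.83 to 12.84. Rpl27a read 9.41 on chow replicate 3, against 9.02 to 9.09 on the others, and Rps19bp1 read 8.86 on replicate 4 at 42 days, against 8.66 to 8.69.

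The change against chow differed between 42 and 5 days, by the limma contrast of the groups, in 1 member and in 14 pathway genes, all lower at 42 days. Rpsa differed by -0.31 ± 0.068 (adjusted p = 0.0225 by limma). In ribosome biogenesis Tsr1 differed by -0.42 (adjusted p = 0.0173), Nolc1 by -0.28 (0.0225), Polr1a by -0.27 (0.0252), Nop14 by -0.24 (0.0262), Rrn3 by -0.18 (0.0437) and Nop2 by -0.17 (0.0473). Among the mTORC1 genes Eif4ebp1 differed by -0.33 (adjusted p = 0.0225), Sesn3 by -0.31 (0.0343), Eif4ebp2 by -0.27 (0.0411), Larp1 by -0.27 (0.0167) and Tsc1 by -0.20 (0.0452). Among translation factors Eif5b differed by -0.26 (adjusted p = 0.0252), Eif2b4 by -0.24 (0.0257) and Eef2k by -0.23 (0.0434). Of all genes in the 3 brightest deciles 13.8% fell in this comparison. Without 42-day replicate 1 it called 0 of all genes, and without 5-day replicate 2 it called 16. In the 12 fits without 1 array Tsr1 and Larp1 lost their calls in 2 each, and Rpsa, Nolc1 and Eif4ebp1 in 3 each. Eif5b did so in 4, Eif2b4, Polr1a and Nop14 in 5 each, Sesn3 and Eif4ebp2 in 6 each and Eef2k in 8. Such losses are not given here for Rrn3, Nop2 and Tsc1.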

How the results depend on the processing

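At 42 days the median of the members stayed below 0 under every alternative run, between -0.09 and -0.04, and between -0.08 and -0.04 when 1 array was left out. The 5 members past the test became 11 at an adjusted p under 0.1, 3 after cyclic loess, 8 of 44 without the 40% dimmest genes, 2 with the mean of probe sets, 8 with the most variable probe set, 11 of 106 with every probe set, 11 with a trended and robust prior, and 0 with either covariate. In that order the shares of all genes or probe sets called were 10.3%, 5.62%, 11.7%, 4.99%, 13.9%, 10.6% and 7.02%. They were 0.055% with the 3′ to 5′ covariate and 0.638% with the adipocyte covariate. Leaving out 1 array gave 1 to 5: 1 without 42-day replicate 1, 2 or 4 or chow replicate 3, 2 without 42-day replicate 3 or chow replicate 4, and 3 without chow replicate 1. Fits without 1 array called 1.25% to 5.93% of all genes. Rpsa passed without each array (adjusted p 0.0155 to 0.0479 by limma) and was lost with the mean of probe sets and with each covariate. Rpl37, Rps25, Rps6 and Rps9 were lost in 6, 8, 6 and 8 of 12 such fits (adjusted p up to 0.0982, 0.11, 0.103 and 0.13), each without chow replicate 3 and without 42-day replicates 1, 2 and 4 among others. Rps9 turned to 0.003 with its brightest probe set without a suffix.

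At 5 days the 2 members became 0 after quantile normalization or cyclic loess, with array weights, in the 8 arrays compared and with the adipocyte covariate, and 1 after median centring, without the dimmest genes and with the 3′ to 5′ covariate. The fits with 0 called 1.14%, 1.14%, 0.874%, 0.0385% and 0.066% of all genes, in that order. Those with 1 called 7.44%, 7.04% and 1.63%. Leaving out 1 array gave 0 to 2, with 0 without 5-day replicate 2 or 4 or chow replicate 1, 3 or 4, and 1 without 5-day replicate 1 or 3 or any 42-day array. Fits without 1 array called 0.033% to 4.34% of all genes. The median became 0.0504 after median centring and -0.0511 after cyclic loess, beside 0.0489 and -0.0053 over all genes. It ran from -0.04 to 0.01 without 1 array, with 0.01 without chow replicate 3. Rpl12 was lost in 6 and Rps25 in 10 of the 12 fits.

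Between the high-fat groups the 1 member became 6 at an adjusted p under 0.1, 10 after median centring, 5 without the dimmest genes, 2 with the most variable probe set, 3 with every probe set, 5 with a trended and robust prior, and 0 after quantile normalization or cyclic loess, with the mean of probe sets and with the 3′ to 5′ covariate, and ran from 0 to 4 without 1 array. In that order the shares of all genes or probe sets called were 20.2%, 19%, 19.1%, 8%, 7.8%, 11%, 2.04%, 2%, 2.91% and 0%. Without 1 array they ran from 0% to 10.8%. The count of members was 0 without 42-day replicate 1 or 5-day replicate 2 or 3, 2 without 5-day replicate 1, and 4 without chow replicate 3. The median became -0.10 after median centring and 0.0136 after cyclic loess, beside -0.0571 and 0.0035 over all genes. It ran from -0.05 to -0.03 without 1 array. At 42 days against chow, Rrs1, Eif4ebp2, Nolc1, Deptor, Rrn3 and Eif4ebp1 lost their calls in 8, 7, 6, 5, 3 and 1 of 12 fits without 1 array. In that comparison Tsr1 and Larp1 lost theirs in 0, but between the high-fat groups in 2 each. Among pathway genes at 42 days against chow, Eif4e turned to -0.0052 with the most variable probe set, and Nolc1 to 0.0826 with the mean and 0.30 with the most variable probe set. Between the high-fat groups Nolc1 turned to 0.15 with the most variable and Polr1a to 0.0198 with the mean of probe sets. With the replicate number as a block, 5, 2 and 1 members passed in the 3 comparisons, as without it, beside 5.78%, 4.84% and 9.77% of all genes. Among named pathway genes the block ended the calls of Eif4e at 42 days, Eif3m at 5 days and Eef2k between the high-fat groups, and of no other. The cause of these differences was not tested. Changes under about 0.25 on dim probe sets are at the limit of 4 arrays a group.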

Other observations

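The control probe set for 18S rRNA, the RNA of the small subunit, lies outside the gene comparisons. It averaged 7.967 ± 0.090 at 42 days, 7.861 ± 0.180 at 5 days and 7.731 ± 0.179 on chow (log2 signal, SD, n = 4), and the ranges of the groups, 7.90 to 8.10, 7.62 to 8.01 and 7.56 to 7.92, overlapped. The cDNA was primed with oligo(dT), per the labels.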
